A study of Mus musculus with 44 samples.

Results

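The 10 lymphomas with the highest level of Cdkn2a were compared with the 10 lymphomas with the lowest, out of 43 lymphomas and 44 arrays in all. All samples came from Eµ-myc mice, whose Myc transgene is under the control of an immunoglobulin heavy chain enhancer, so that lymphomas of the B lineage arise. The members were selected on Cdkn2a values, a readout of the array itself. The log2 value of the Cdkn2a probe set was centred on the mean of the lymphomas, separately for the 36 lower and the 7 higher title numbers, and the 10 highest (Cdkn2a-high) and the 10 lowest (Cdkn2a-low) were taken, with the middle 23 shown beside them. Each lymphoma is named by its title (D43, for example). Every group therefore had the same genotype, Eµ-myc, and the labels gave no treatment, age or sex and did not tie lymphomas to animals, so p-values measure the spread between these samples. Lymphoma tissue had been frozen, or pellets of suspended cells had been; the route of a given array is not told.

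Cdkn2a encodes 2 unrelated tumour suppressors from separate first exons, p16Ink4a, an inhibitor of the cyclin D kinases, and p19Arf. Arf is induced by Myc and binds Mdm2, the ubiquitin ligase that degrades p53, so that cells with excess Myc arrest or die through p53. Eµ-myc lymphomas are known for escaping this brake by deleting the locus or by losing p53, and since p53 represses Arf, cells without p53 accumulate its transcript. The extremes of Cdkn2a were chosen with these outcomes in mind, but the labels name neither event for any lymphoma, and the status of Trp53 was not analysed here.

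The arrays fell into an array set of 36 lymphomas with the lower title numbers (set 1, column medians 6.21 to 6.45) and a set of 7 with the higher ones (set 2, column medians 6.85 to 6.96). Each end held 8 lymphomas of set 1 and 2 of set 2. All levels below are log2 values minus the mean of the lymphomas of the same set, and every difference was fitted with the set as a covariate. Of 13 pan B cell markers measured, such as Cd79a and Pax5, 12 to 13 lay above the array's own median in each Cdkn2a-high lymphoma and 9 to 13 in each Cdkn2a-low lymphoma. The lymphoma with 9 in the low group was D92, whose pan B cell score (the mean level of the list) was -2.85 and whose dendritic cell score was 2.43. Results were repeated without D92 and the middle lymphomas D55, D59 and D121, whose pan B cell scores were -1.62, -0.91 and -0.999. The number of arrays limits the precision.

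The deposited array has 1 probe set for Cdkn2a that passed the naming rules and does not separate the Arf from the Ink4a transcript. The 250 bases before the start of each transcript are shown, since the grouping rests on the sum of what the 2 starts produce. Both are on the minus strand of GRCm38.p6, from RefSeq. Capitals mark the E2F-type motif TTTCCCGC and the GC box GGGCGG, searched on both strands and not overlapping each other.
Arf start, chr4:89294620-89294869: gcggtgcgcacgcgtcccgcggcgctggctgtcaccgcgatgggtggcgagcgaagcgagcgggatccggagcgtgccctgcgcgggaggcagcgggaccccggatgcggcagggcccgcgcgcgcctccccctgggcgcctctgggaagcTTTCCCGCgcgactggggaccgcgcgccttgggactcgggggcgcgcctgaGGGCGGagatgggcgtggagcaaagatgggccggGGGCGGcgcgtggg
Ink4a start, chr4:89282193-89282442: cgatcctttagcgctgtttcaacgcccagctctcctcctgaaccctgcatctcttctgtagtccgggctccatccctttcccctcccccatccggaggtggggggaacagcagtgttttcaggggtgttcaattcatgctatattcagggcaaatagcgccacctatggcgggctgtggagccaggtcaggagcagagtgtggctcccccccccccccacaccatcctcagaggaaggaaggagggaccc
The Arf window held 40 CG pairs and 78.4% G or C, 1 TTTCCCGC and 2 GGGCGG. The Ink4a window held 7 CG pairs and 60.0% G or C and neither motif. Over 32851 RefSeq windows of the same length, the median was 6 CG pairs, 0.89% held TTTCCCGC and 32.74% held GGGCGG. The E2F-type motifs TTTCGCGC and TTTGGCGC (0.26% and 0.42% of windows), the E box CACGTG (6.02%) and TATAAA (12.37%) were found in neither.

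Cdkn2a spanned most of the range of the array. In the Cdkn2a-high lymphomas its level ran from 2.63 (D83) through a median of 3.65 to 3.78 (D43), which is 10.31 to 12.13 on the deposited log2 scale. In the Cdkn2a-low lymphomas it ran from -3.71 (D47) through a median of -2.83 to -2.003 (D143), or 3.97 to 6.39 as deposited. The middle 23 lay between -1.88 and 2.05 with a median of -0.19. Just outside the high end stood D52 (2.05) and D86 (1.96), and the widest gap in the ranking, 1.23 log2 units, lay below D86. Just outside the low end stood D63 at -1.88, close to D143, so no gap borders the low group. These values chose the members and were not tested.

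Genes next to Cdkn2a on chromosome 4, by gene order in GRCm38.p6, were at very low levels in some Cdkn2a-low lymphomas. Mtap, the methylthioadenosine phosphorylase gene beside the locus, has 4 probe sets. In its most variable one it stood at -4.46 in D84, -4.23 in D69 and -3.63 in D47, against 0.35 to 1.14 in the 10 Cdkn2a-high lymphomas. On the deposited scale those 3 lymphomas were at 3.97, 4.20 and 4.80. The other 7 Cdkn2a-low lymphomas lay between -0.82 and 1.03, so the low group was split. All 4 Mtap probe sets put D47, D69 and D84 below every Cdkn2a-high lymphoma, and the remaining 3 reached -4.30, -2.82 and -1.76 at their lowest. Klhl9, an adaptor of a cullin ubiquitin ligase on the far side of Mtap, was at -3.77 in D69 alone, with the next lowest Cdkn2a-low lymphoma at -0.16. The lowest middle lymphoma, D75, was at -1.77. Ift74, an intraflagellar transport gene on the other side of Cdkn2a, was at -1.85 in D84, -1.75 in D34 and -1.57 in D47, but at 1.24 in D69. The drops thus covered different neighbours in different lymphomas, and D81, D92 and D58, with Cdkn2a at -2.91, -2.79 and -2.004, kept Mtap at 1.03, 0.85 and 0.77.

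**Figure D1:**
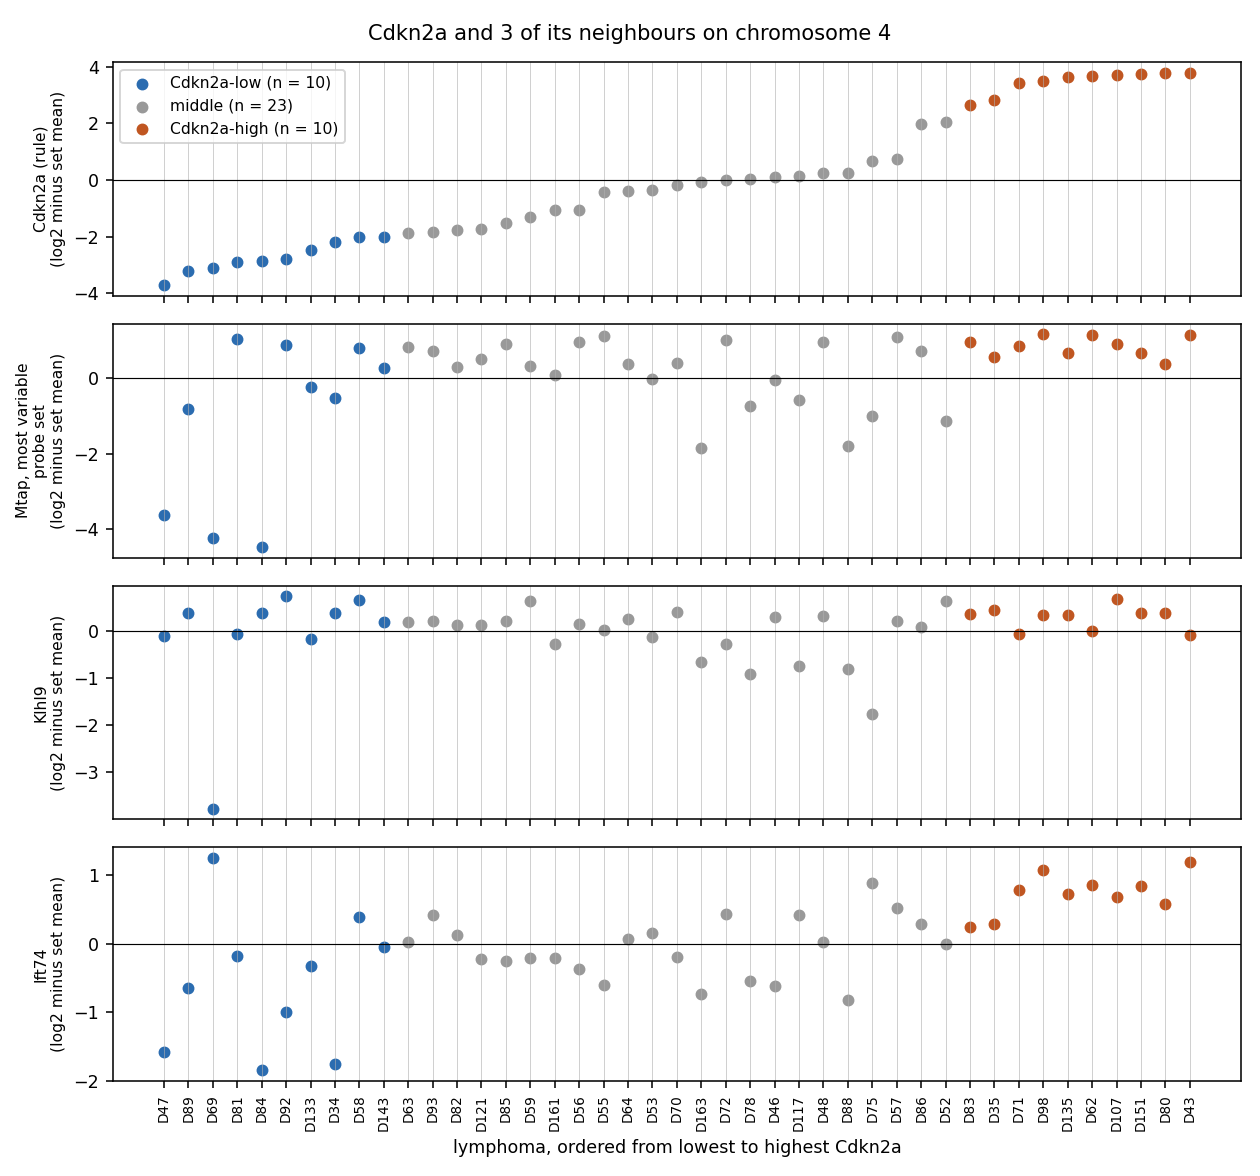
Level of Cdkn2a (used to choose the groups), the most variable Mtap probe set, Klhl9 and Ift74 in each of 43 lymphomas, in log2 units minus the mean of the array set, ordered by Cdkn2a; each point is 1 array. D47, D69 and D84 stand at -3.63 or lower for Mtap, and D69 alone at -3.77 for Klhl9.

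Of the neighbours, Ift74 passed the test between the ends, and Mtap passed it in 1 of its 4 probe sets. Ift74 ran from 0.25 through a median of 0.75 to 1.19 in the Cdkn2a-high lymphomas and from -1.85 through -0.49 to 1.24 in the Cdkn2a-low ones. The highest value of all was a Cdkn2a-low lymphoma, D69, while 8 of 10 Cdkn2a-low lymphomas lay below every Cdkn2a-high one. The difference was 1.30 ± 0.26 (SE, log2), a fold of 2.46 (limma, adjusted p = 0.0078), with 1.38 in set 1 and 0.96 in set 2. For Ift74, high minus middle was 0.79 ± 0.22 (limma, adjusted p = 0.0147). Middle minus low was 0.51 ± 0.22, which did not pass (limma, adjusted p = 0.246). The Mtap probe set with the highest mean, which stood for the gene in the fit of 1 probe set per gene, differed by 0.58 ± 0.33 (limma, adjusted p = 0.36). In a limma fit of all 20380 probe sets, added after the data were seen, the other 3 differed by 2.01 ± 0.52, 1.93 ± 0.54 and 1.10 ± 0.42 (adjusted p = 0.0452, 0.0642 and 0.194), so the size and the call depended on the probe set. The first of these ran from 0.35 through 0.94 to 1.38 in the Cdkn2a-high and from -4.30 through -0.47 to 0.995 in the Cdkn2a-low lymphomas. Of the Cdkn2a-low lymphomas 7 lay below every Cdkn2a-high one, as did 11 of the middle 23. Klhl9 differed by 0.42 ± 0.34 (limma, adjusted p = 0.573). Cdkn2b, the p15Ink4b gene next to Cdkn2a, was dim in both groups, from -0.27 to 0.50 in the high and -0.48 to -0.04 in the low group, and its difference of 0.21 ± 0.14 did not pass (limma, adjusted p = 0.483). Among 9 listed chromosome 4 neighbours tested with 1 probe set each, Ift74 was the 1 called higher and 0 were called lower. Of all genes 1.38% were called higher and 0.661% lower.

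Across the whole array the ends differed in few genes. Of 8621 genes tested with limma, 119 were higher in the Cdkn2a-high lymphomas (1.38%) and 57 were lower (0.661%), at an adjusted p under 0.05. Of these, 10 and 9 changed at least 2-fold, and the median size of a called change was 0.50 log2 units. Unadjusted, 900 genes were higher and 595 lower at p under 0.05. The counts moved with single lymphomas. They were 50 and 21 without D43, 60 and 24 without D84, 72 and 26 without D135, and 74 and 32 without D107. Without D71 78 genes were higher, without D35 30 and without D80 35 genes were lower, and without D83, the Cdkn2a-high lymphoma with the lowest Cdkn2a, the counts rose to 193 and 90. With D55, D59, D92 and D121 left out, 95 genes were higher and 42 lower, 83 and 36 of them among the 119 and 57. Without the set term, which leaves the offset between array sets in the spread, limma called 0 higher and 1 lower (712 genes at an unadjusted p under 0.05), although all 176 calls kept their sign.

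More genes separated the Cdkn2a-high lymphomas than the Cdkn2a-low ones from the middle. Against the middle 23 they had 860 genes higher (9.98%) and 410 lower (4.76%). The Cdkn2a-low lymphomas differed from the middle in 12 genes that were higher in the middle (0.139%) and 20 that were lower (0.232%). These comparisons share the middle lymphomas and are of the same size, 10 against 23, and the difference between their counts was not tested. Of the 176 genes called between the ends, 76.7% had their middle mean between the 2 ends, and in 82.95% the middle mean was closer to that of the Cdkn2a-low group.

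The p53 targets did not separate the ends. Of 34 measured targets, 0 passed the limma test in either direction, against 1.38% and 0.661% of all genes, while 1 was higher and 2 were lower at an unadjusted p under 0.05. Their median difference was 0.01, the same as over all genes (0.01). Cdkn1a, the p21 cell cycle inhibitor and the classical target, ran from -1.20 through -0.85 to 0.76 in the Cdkn2a-high and from -1.09 through -0.67 to 0.19 in the Cdkn2a-low lymphomas, and the ranges overlapped. Its difference was 0.11, with a 95% interval of -0.72 to 0.95. Mdm2, both a target and the inhibitor of p53, differed by 0.07, with an interval of -0.14 to 0.27. Bbc3, the apoptosis gene Puma, had the most negative difference, -0.74 ± 0.27 (limma, adjusted p = 0.133). It ran from -1.16 through -0.51 to 1.32 in the high and from -0.81 through 0.10 to 1.81 in the low group, and the groups overlapped. Polk, a translesion DNA polymerase gene on chromosome 13, followed with -0.53 ± 0.16 (limma, adjusted p = 0.0642), and the most positive of the 3, the exonuclease gene Aen, with 0.28 ± 0.14 (limma, adjusted p = 0.271). Ccng1, cyclin G1, differed by -0.45 ± 0.24 (limma, adjusted p = 0.332). The targets thus gave no called difference between the ends, and the groups are named by their Cdkn2a level alone, not by loss of p53 or of the locus.

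**Figure D2:**
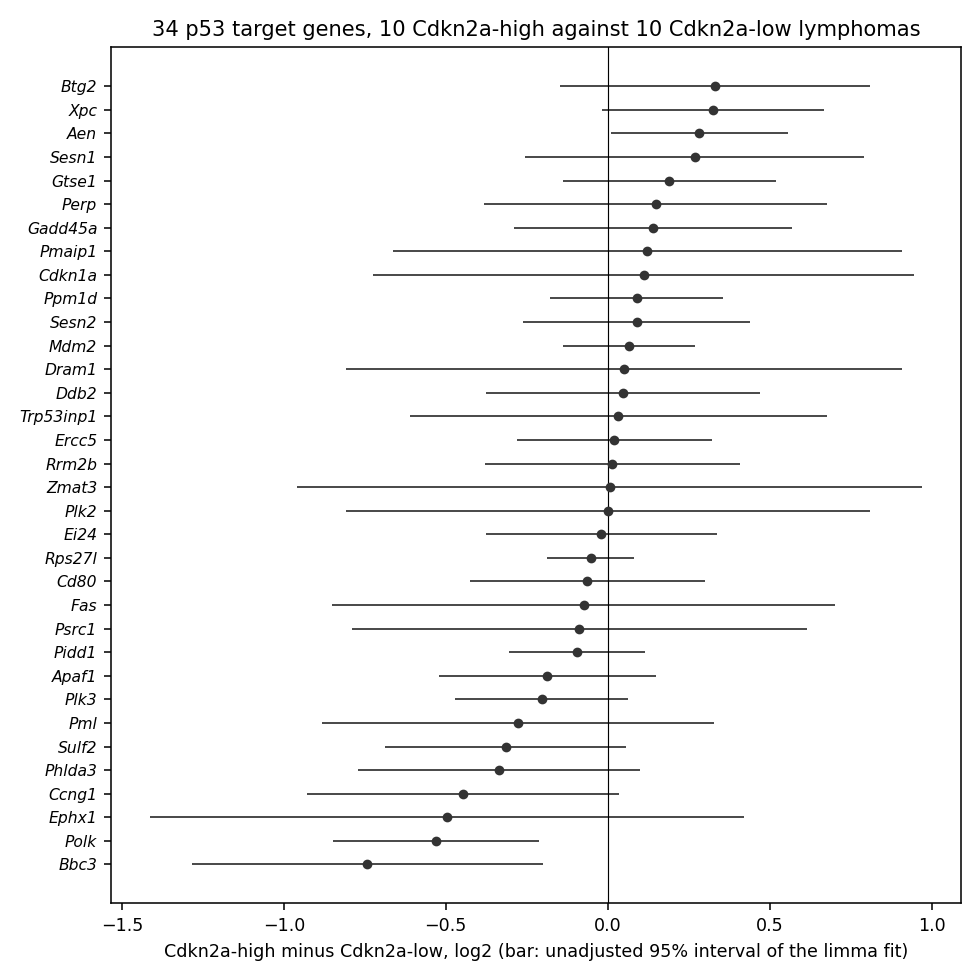
Difference in log2 level between the 10 Cdkn2a-high and the 10 Cdkn2a-low lymphomas for 34 p53 target genes, with the unadjusted 95% interval of the limma fit. The points scatter around 0, from -0.74 for Bbc3 to 0.33 for Btg2, and 0 passed the adjusted test.

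Some targets instead reached their highest single values in the middle. Others had their lowest mean there, such as Plk2 (-0.20, against 0.23 at both ends) and Xpc (-0.21, against 0.40 in the high and 0.08 in the low group). Cdkn1a reached 3.61 there, and 7 of 23 middle lymphomas lay above all 20 lymphomas of the ends. The same held for 10 of 23 with Pmaip1 (the apoptosis gene Noxa), 7 with Fas (a death receptor), 6 with Ccng1 and 4 with Mdm2, and for 0 with Bbc3 and Aen. The medians of Fas were close in the middle (-0.24) and low group (-0.23), and those of Mdm2 in the middle (-0.05) and high group (-0.06). Such counts were not made over all targets or all genes, and Pmaip1, Fas and Aen were picked out after their values were seen. In the fit, Cdkn1a was lower in the Cdkn2a-high than in the middle lymphomas by -0.996 ± 0.35 (limma, adjusted p = 0.0486), and Ccng1 by -0.76 ± 0.20 (limma, adjusted p = 0.0104). Cdkn1a was 1.11 ± 0.35 higher in the middle than in the low group, which did not pass (limma, adjusted p = 0.129). Of the 34 targets, 1 was higher and 4 were lower in the Cdkn2a-high lymphomas against the middle, where 9.98% of all genes were called higher and 4.76% lower. T cell marker genes were also higher in the middle (12 of 14 were lower in the Cdkn2a-high lymphomas), and their part in these differences was not tested.

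Among 12 regulators of p53, Mdm4 alone was called, where 1.38% of all genes were called higher and 0.661% lower. Mdm4 encodes the partner of Mdm2 that blocks the transactivation domain of p53. It ran from -0.72 through -0.24 to 0.21 in the Cdkn2a-high and from 0.05 through 0.27 to 0.49 in the Cdkn2a-low lymphomas. Of the Cdkn2a-high lymphomas 8 lay below every Cdkn2a-low one, the exceptions being D62 (0.21) and D35 (0.07). The difference was -0.51 ± 0.10, a fold of 1.42 (limma, adjusted p = 0.0078), with -0.46 in set 1 and -0.70 in set 2, and the second Mdm4 probe set gave -0.58. The call held without each of the 20 lymphomas of the ends in turn (adjusted p 0.00277 to 0.0196). The middle mean, -0.01, lay between the ends.

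Among 22 factors known to regulate the Cdkn2a locus, mostly Polycomb subunits and transcription factors, Ring1 was the 1 called. Of all genes 1.38% were called higher and 0.661% lower. Ring1, an E3 ligase subunit of Polycomb repressive complex 1, ran from -0.49 through -0.26 to 0.06 in the Cdkn2a-high and from -0.03 through 0.14 to 0.35 in the Cdkn2a-low lymphomas. Of the high lymphomas 9 lay below every low one, and the difference was -0.38 ± 0.08 (limma, adjusted p = 0.0094). Ezh1, a histone H3K27 methyltransferase outside the list and picked out after its values were seen, was also lower, by -0.41 ± 0.11 (limma, adjusted p = 0.0404), a call lost without any 1 of 12 lymphomas (adjusted p in the 20 fits that leave 1 out 0.0226 to 0.085).

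Cell cycle, Myc and growth genes showed few calls between the ends, as did all genes (1.38% called higher and 0.661% lower). Of 10 E2F factors and RB proteins, 13 G1 regulators, 22 genes of G2 and mitosis, 14 of DNA repair, 9 of the BCL2 family and 10 of the MYC network, 0 were called in any list, with medians of -0.21, 0.09, 0.15, 0.06, -0.20 and -0.03 beside 0.01 over all genes. Unadjusted, these 6 lists had 6 genes higher and 6 lower, against 900 and 595 of all 8621 genes. Myc itself differed by 0.20 ± 0.22 (limma, adjusted p = 0.695), Mki67, the proliferation marker, by -0.16 ± 0.13 (limma, adjusted p = 0.574), and Bcl2 by -0.22 ± 0.22 (limma, adjusted p = 0.687). Myc was higher in the Cdkn2a-high than in the middle lymphomas, by 0.71 ± 0.18 (limma, adjusted p = 0.009). In that comparison 3 of 10 MYC network genes and 7 of 21 ribosome biogenesis genes were called higher, where 9.98% of all genes were. Of 21 S phase genes Fen1, the flap endonuclease of lagging-strand synthesis, was lower, by -0.49 ± 0.12 (limma, adjusted p = 0.0203). It lies on chromosome 19.

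Single metabolic genes were called. Ndufa4, a subunit of cytochrome c oxidase, ran from 0.02 through 0.20 to 0.49 in the Cdkn2a-high and from -0.45 through -0.09 to 0.12 in the Cdkn2a-low lymphomas. The groups overlapped in few lymphomas, and the difference was 0.37 ± 0.08 (limma, adjusted p = 0.0089). Sdha, the flavoprotein of succinate dehydrogenase, on chromosome 13, was lower by -0.47 ± 0.12 (limma, adjusted p = 0.0353). Of 22 oxidative phosphorylation genes these were the 2 called, where 1.38% of all genes were called higher and 0.661% lower. Unadjusted, 9 of the 22 were higher and 2 lower, against 900 and 595 of all 8621 genes, and their median was 0.13. Slc2a3, the glucose transporter Glut3, was higher by 0.65 ± 0.17 (limma, adjusted p = 0.0356), the 1 call among 18 glycolysis and hypoxia genes. Nip7, a ribosome assembly factor, was higher by 0.36 ± 0.09 (limma, adjusted p = 0.0331), the 1 call between the ends among 21 ribosome biogenesis genes. Without single lymphomas Sdha lost its call in 8 of 20 fits, Slc2a3 in 9 and Nip7 in 7, with adjusted p up to 0.0776, 0.0756 and 0.0737.

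Rpl22l1 had the smallest adjusted p of all genes. It encodes the paralogue of ribosomal protein L22, and Rpl22 is known to hold its expression down. In the Cdkn2a-high lymphomas it ran from -1.76 (D107) through a median of -0.90 to 0.06 (D71), and in the Cdkn2a-low ones from -0.06 through 0.33 to 0.51. Of the Cdkn2a-high lymphomas 7 lay between -1.76 and -0.77, D62 and D83 at -0.19 and -0.25, and 0 of the 23 middle lymphomas was below -0.36. The difference was -1.04 ± 0.13, a fold of 2.06 (limma, adjusted p = 1.2e-05), with -0.94 in set 1 and -1.45 in set 2. It was called without each lymphoma of the ends and in all 21 other alternatives. Against the middle the Cdkn2a-high lymphomas were lower by -0.98 ± 0.11 (limma, adjusted p = 8.66e-07), while the middle and the low group differed by -0.06 ± 0.11 (limma, adjusted p = 0.818). Rpl22 itself differed by 0.05 ± 0.05 in its brighter probe set (limma, adjusted p = 0.68) and by -0.28 in the other, so its sign depends on the probe set.

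**Figure D3:**
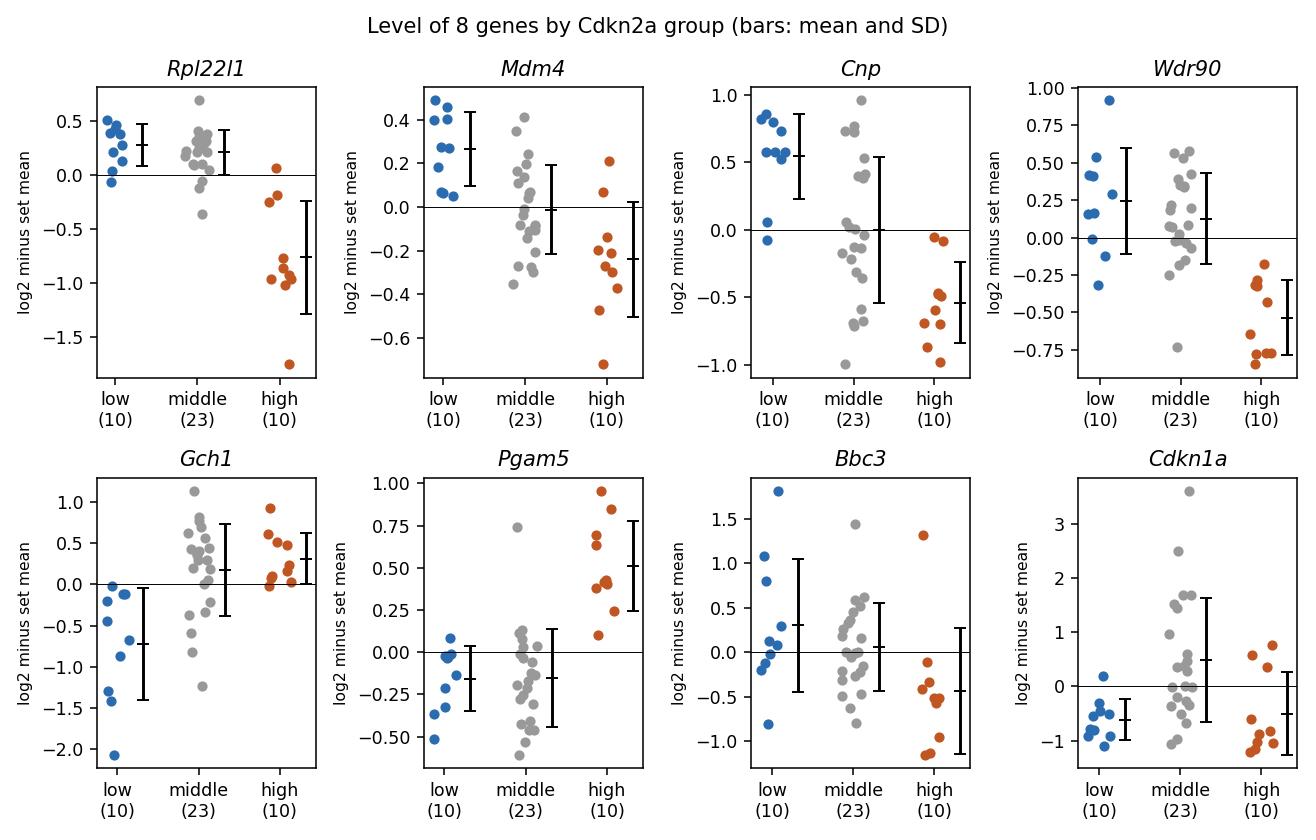
Level of 8 genes in the Cdkn2a-low (n = 10), middle (n = 23) and Cdkn2a-high (n = 10) lymphomas, in log2 units minus the mean of the array set; each point is 1 lymphoma, and bars show the mean and SD of each group. Rpl22l1 is at -0.77 or lower in 7 of 10 Cdkn2a-high lymphomas and in 0 of the others, while Bbc3 and Cdkn1a overlap between the ends.

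The called genes were not spread evenly over the chromosomes. Chromosome 5 held 45 of the 119 genes called higher and 0 called lower, 8.26% of its 545 genes tested. Chromosome 13 held 21 of the 57 called lower and 0 called higher, 6.91% of its 304, and chromosome 19 held 8 lower and 0 higher of 327. Outside these 3 chromosomes 74 of 7445 genes were higher (0.994%) and 28 lower (0.376%). The median difference was 0.19 over all genes of chromosome 5, with 76.0% positive, -0.23 on chromosome 13 and -0.15 on chromosome 19. Calls lay all along these chromosomes, counted over 3 equal parts by gene order: 14, 14 and 17 on chromosome 5, 6, 10 and 5 on chromosome 13, and 5, 2 and 1 on chromosome 19. Genes on the same chromosome are not independent, and copy number was not measured.

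Among the genes behind these counts, picked out by chromosome after their values were seen, Pgam5 had the smallest p on chromosome 5. Pgam5, a mitochondrial phosphatase, ran from 0.10 through 0.42 to 0.95 in the Cdkn2a-high and from -0.52 through -0.08 to 0.08 in the Cdkn2a-low lymphomas. The groups did not overlap, and the difference was 0.67 ± 0.12 (limma, adjusted p = 0.0054). On the same chromosome Lias, the lipoic acid synthase, was 0.75 higher, Mrps18c, a mitochondrial ribosome protein, 0.51 higher, and Pacrgl and Crcp 0.78 and 0.63 higher (limma, each adjusted p = 0.0078). On chromosome 13 Higd2a, an assembly factor of the respiratory chain, ran from -1.13 through -0.39 to 0.18 in the high and from -0.05 through 0.21 to 0.36 in the low group. Of the Cdkn2a-high lymphomas 7 were below every Cdkn2a-low one, and the difference was -0.57 ± 0.11 (limma, adjusted p = 0.0078). Tut7, a terminal uridylyltransferase, and Bicd2, a dynein adaptor, differed by -0.58 and -0.71. On chromosome 19 Fermt3, the integrin activator kindlin-3, and Plcb3, a phospholipase C, differed by -0.51 and -0.48 (limma, adjusted p = 0.0265 and 0.0358), and both lost the call without some single lymphomas.

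The chromosome medians of single lymphomas showed which samples carried the shifts. For chromosome 5 the median over its genes ran from -0.04 through 0.12 to 0.42 in the Cdkn2a-high lymphomas, with D62 (0.42), D71 (0.33), D35 (0.32), D43 (0.23) and D151 (0.16) the highest. All Cdkn2a-low lymphomas lay at or below 0.04, 7 Cdkn2a-high ones lay above all of them, and 1 middle lymphoma, D86, stood at 0.34. D86 also had the second highest Cdkn2a outside the high end, but D52, with the highest there, had a chromosome 5 median of -0.17. The difference of 0.19 was past the threshold in a two-sided permutation test over lymphomas (n = 10 and 10, 100000 resamples, p = 0.00108, adjusted over 19 autosomes 0.0205), with 0.21 in set 1 and 0.11 in set 2. Without D35, D62 and D71, chromosome 5 had 3 genes called higher in place of 45. These lymphomas had the highest medians of the high group, so leaving them out had to cut the calls. The count was 25 without D43 and 75 without D83.

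Chromosome 13 was lowest in D80 (-0.56), D35 (-0.51) and D107 (-0.46), and its medians ran from -0.56 through -0.12 to 0.11 in the Cdkn2a-high and from -0.0016 through 0.05 to 0.11 in the Cdkn2a-low lymphomas. The groups overlapped, with 6 Cdkn2a-high lymphomas below every Cdkn2a-low one. The difference was -0.23 (permutation test, two-sided, p = 0.0052, adjusted p = 0.0329), with -0.23 in set 1 and -0.20 in set 2. Chromosome 19 was lowest in D98 (-0.38), D43 (-0.24) and D135 (-0.20). It ran from -0.38 through -0.07 to 0.05 in the high and from -0.06 through 0.03 to 0.30 in the low group, with 5 high lymphomas below every low one. The difference was -0.15 (permutation test, p = 0.0093, adjusted p = 0.0442), with -0.14 in set 1 and -0.21 in set 2. Chromosome 6 also passed, with a small difference of 0.05 (permutation test, p = 0.00352, adjusted p = 0.0329), and the other 15 autosomes did not. Without D35, D80 and D107, 0 chromosome 13 genes were called lower. These lymphomas had the lowest medians, so leaving them out had to cut the calls. Without 1 lymphoma the count was 6 (D43), 7 (D35), 8 (D80, D84), 9 (D107), 10 (D34, D135) or 13 (D143) in place of 21.

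**Figure D4:**
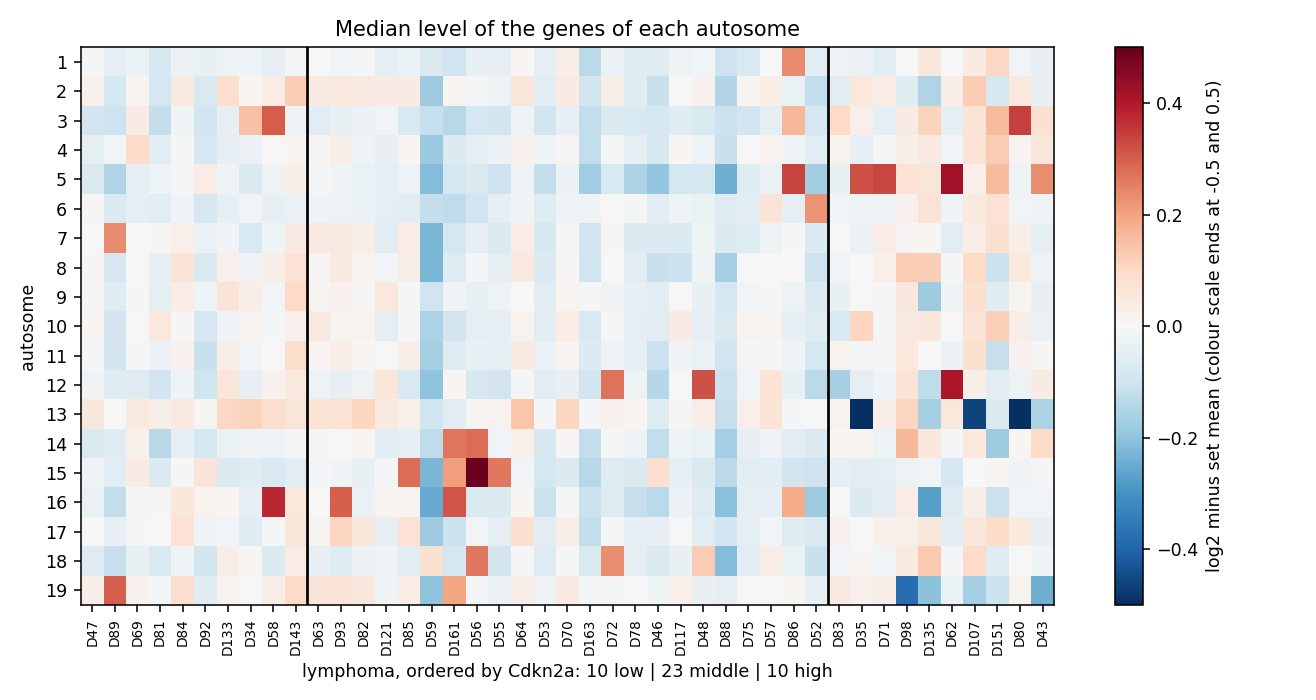
Median level of the genes of each of 19 autosomes (rows) in each of 43 lymphomas (columns, ordered by Cdkn2a, lines between the 10 low, 23 middle and 10 high), in log2 units minus the mean of the array set. Red marks a higher and blue a lower median; chromosome 5 reaches 0.42 in D62, and chromosome 13 -0.56 in D80.

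The Cdkn2a-high lymphomas were the more uneven from chromosome to chromosome. The imbalance of a lymphoma was taken as the SD of its 19 autosome medians. It ran from 0.054 (D83) through 0.117 to 0.157 (D80) in the Cdkn2a-high, from 0.0381 through 0.0496 to 0.117 (D58) in the Cdkn2a-low and from 0.0296 through 0.0543 to 0.154 (D56) in the middle lymphomas. Of the Cdkn2a-low lymphomas D58 (0.117) and D89 (0.114) were the highest and the other 8 lay at or below 0.0571, so the ends overlapped through these 2 and D83. The means were 0.115 ± 0.0315 and 0.0602 ± 0.0296 (SD, n = 10 each), and the difference of 0.0552 was past the threshold (two-sided permutation test, 100000 resamples, p = 0.00204). Within set 1 it was 0.0519 and within set 2, with 2 lymphomas on each side, 0.0682. An autosome median more than 0.2 log2 units from the lymphoma's own median autosome was seen in 9 of 10 Cdkn2a-high lymphomas, the exception being D83, in 2 of 10 Cdkn2a-low ones and in 10 of 23 middle ones. Some kinds of shift were seen mainly in 1 group and others in several. Chromosome 3 was upwards in 2 high and 1 low lymphomas, chromosome 12 in 1 high and 2 middle ones, and chromosome 5 also in 1 middle one. All 5 shifts of chromosome 5 in the high group were upwards, all 4 of chromosome 13 and all 4 of chromosome 19 were downwards, while 4 middle lymphomas had chromosome 15 upwards and 0 of the ends had it. This threshold was chosen after the data were seen, and the kinds of shift were not tested.

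**Figure D5:**
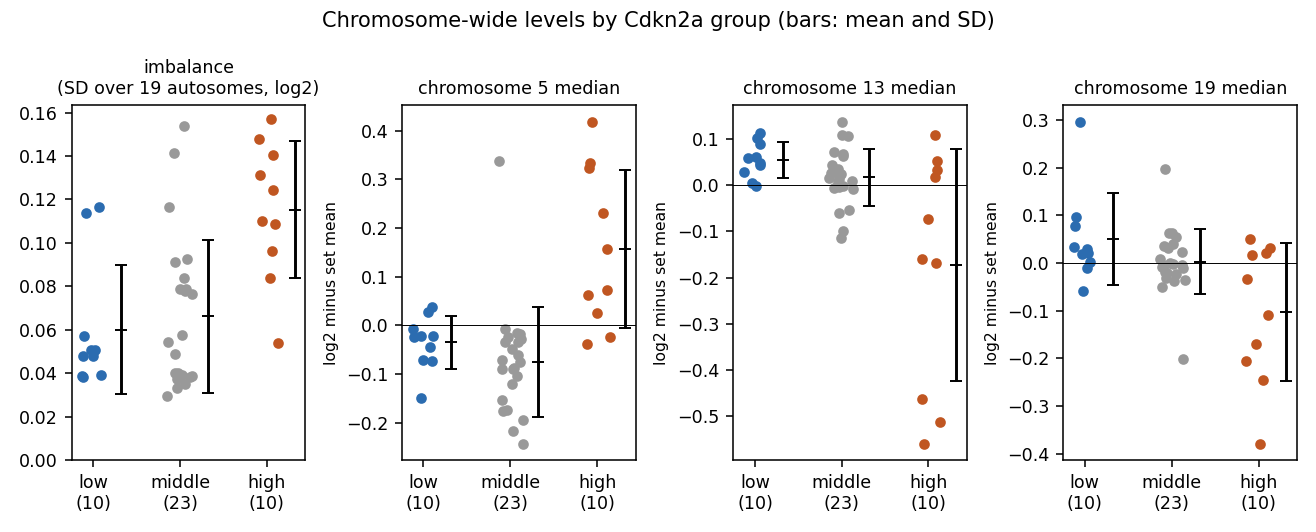
Imbalance (SD over 19 autosome medians, log2) and the medians of chromosomes 5, 13 and 19 (log2 minus the mean of the array set) in the Cdkn2a-low (n = 10), middle (n = 23) and Cdkn2a-high (n = 10) lymphomas; points are lymphomas, bars the mean and SD. All Cdkn2a-high lymphomas but D83 lie at 0.0837 or higher for imbalance, and 3 of them lie at -0.46 or lower for chromosome 13.

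Among the genes called, the largest increases in the Cdkn2a-high lymphomas were in genes of varied function. Slc30a4, a zinc transporter, ran from -0.89 through 0.84 to 2.18 in the high and from -1.18 through -0.76 to -0.21 in the low group, with 8 high lymphomas above every low one. The difference was 1.44 ± 0.33 (limma, adjusted p = 0.0148). Gch1, GTP cyclohydrolase, the first enzyme of tetrahydrobiopterin synthesis, ran from -0.02 through 0.20 to 0.93 in the high and from -2.07 through -0.56 to -0.02 in the low group. Its groups did not overlap, with a difference of 1.04 ± 0.24 (limma, adjusted p = 0.0148), and its middle mean (0.18) was close to the high one (0.31). Acp6, a lysophosphatidic acid phosphatase, and Mylpf, a myosin light chain, were higher by 0.98 and 0.94, each with 9 high lymphomas above every low one (limma, adjusted p = 0.014 and 0.0128). Gm1976 was higher by 1.11 ± 0.25 (limma, adjusted p = 0.0113). These 5 calls held without each lymphoma of the ends. In the other 21 alternatives, Slc30a4 lost its call in 4, Gch1 in 8, and Acp6 and Mylpf in 5 each, and Gm1976 in 5 of 20. Gm1976 differed by 1.35 in set 1 and by 0.18 in set 2.

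Surface and adaptor genes of lymphocytes were among the less stable increases. Slamf6, a SLAM family receptor, differed by 1.31 ± 0.35, Sit1, a transmembrane adaptor, by 1.01 ± 0.27, and Ndfip2, an adaptor of Nedd4 ubiquitin ligases, by 1.05 ± 0.28 (limma, adjusted p = 0.0358, 0.0358 and 0.0346). Hopx, an atypical homeodomain gene on chromosome 5, Amacr, a racemase of branched fatty acids, and Gas2 differed by 1.14, 1.13 and 1.20 (limma, adjusted p = 0.0477, 0.0265 and 0.0348). When 1 lymphoma was left out, the calls of Slamf6, Sit1, Ndfip2, Hopx and Gas2 were lost in 10, 9, 8, 14 and 9 of 20 fits, and that of Amacr in 2, with adjusted p up to 0.0902, 0.0825, 0.0887, 0.104, 0.0771 and 0.0646. The differences stayed positive in these fits, but in set 2 alone Sit1 was at -0.22 and Gas2 at 0.03.

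Among the 12 largest decreases of called genes Cnp, Prodh, Zfp362 and Rpl22l1, given above, were called without each lymphoma of the ends in turn. The same held for Wdr90, which lies outside those 12. In the other 21 alternatives Cnp, Wdr90, Prodh and Zfp362 lost the call in 3, 2, 7 and 6. Cnp, the cyclic nucleotide phosphodiesterase best known from myelin, ran from -0.98 through -0.54 to -0.06 in the Cdkn2a-high and from -0.08 through 0.58 to 0.86 in the Cdkn2a-low lymphomas. Only 1 lymphoma of each end crossed into the other, and the difference was -1.08 ± 0.20 (limma, adjusted p = 0.0054). Wdr90, a WD repeat gene picked out after its values were seen, ran from -0.85 through -0.54 to -0.18 in the high and from -0.32 through 0.23 to 0.92 in the low group, a difference of -0.78 ± 0.14 (limma, adjusted p = 0.0054). Prodh, the first enzyme of proline breakdown and a gene also known to be induced by p53, ran from -1.53 through -0.18 to 0.69 in the high, from -0.26 through 1.46 to 1.97 in the low and from -1.80 through -0.58 to 1.42 in the middle lymphomas. The Cdkn2a-low group held the high values. High minus low was -1.51 ± 0.35 (limma, adjusted p = 0.0144) and middle minus low -1.63 ± 0.30 (limma, adjusted p = 0.0065). Zfp362, a zinc finger gene, differed by -1.30 ± 0.30 (limma, adjusted p = 0.0138), and its middle and low means were near each other, 0.29 and 0.31.

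Aldh1b1, Actn1, Spint2, Csnk1e, Fnbp1, Matk and Syk completed the decreases. Aldh1b1, a mitochondrial aldehyde dehydrogenase, had the most negative difference among the genes called, -1.80 ± 0.45 (limma, adjusted p = 0.0238), with D62 at 1.27 among otherwise low Cdkn2a-high lymphomas. Csnk1e, casein kinase 1 epsilon, and Spint2, a protease inhibitor, differed by -1.40 and -1.53, Fnbp1, a formin-binding protein, by -0.99, and Actn1, alpha-actinin, by -1.74 (limma, adjusted p = 0.0265, 0.028, 0.0203 and 0.0495). Syk, the kinase of the B cell receptor, on chromosome 13, and Matk, a kinase that inhibits Src family members, differed by -0.84 and -0.85 (limma, adjusted p = 0.0495 each). When 1 lymphoma was left out Actn1, Matk and Syk lost the call in 14, 15 and 14 of 20 fits (adjusted p up to 0.101, 0.111 and 0.111), Spint2 in 6, Csnk1e in 3, and Aldh1b1 and Fnbp1 in 2 each. Syk was the 1 call among 13 pan B cell markers, whose median difference was 0.43, where 0.661% of all genes were called lower.

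Markers of other cell types gave 1 call between the ends, a neutrophil gene. Neutrophil and T cell markers all had differences of 1 sign, as did the shorter lists of dendritic cell (5 negative), erythroid (4 negative) and megakaryocyte markers (2 positive). Of 12 neutrophil markers tested, all 12 differences were negative, 10 at an unadjusted p under 0.05. Over all 8621 genes, 595 were lower and 900 higher at that level, and 0.661% were called lower. Mpo, myeloperoxidase, was called (-1.75 ± 0.48, limma, adjusted p = 0.0404, lost in 12 of 20 fits without 1 lymphoma). The neutrophil score ran from -1.84 through -0.88 to 0.04 in the high and from -1.56 through 0.77 to 2.23 in the low group. All 14 T cell markers had negative differences too, with a median of -0.57 and 0 called by limma (2 lower at an unadjusted p under 0.05), and their score ran from -1.35 through -0.84 to -0.05 in the high, from -0.94 through -0.27 to 0.66 in the low and from -1.15 through 0.47 to 2.03 in the middle lymphomas. Against the middle, 12 of 14 T cell markers, 4 of 11 cytotoxic markers and 3 of 15 interferon response genes were called lower in the Cdkn2a-high lymphomas, against 4.76% of all genes. Plasma cell markers differed by a median of -0.53, with 10 of 11 negative and 0 called by limma (4 lower unadjusted). Macrophage markers went the other way, with 18 of 19 positive, a median of 0.25 and 0 called by limma (1 higher unadjusted). In bulk tissue, fewer cells of a type and less RNA per cell cannot be told apart. With T cell, macrophage, neutrophil and stroma scores as covariates, 66 genes were higher and 13 lower, 50 and 12 of them among the 119 and 57. In that fit the median difference was 0.23 on chromosome 5 and -0.22 on chromosome 13 (main fit 0.19 and -0.23). Fewer chromosome 13 genes were called lower than in the main fit, and the part of cell content was not tested.

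The genes most like Cdkn2a over all 43 lymphomas lay on chromosome 5. By Pearson correlation of centred levels, the 5 most similar genes were Pgam5 (0.71), Mrpl1 (0.69), Tmem128 (0.69), Rab28 (0.68) and Babam2 (0.68), all on chromosome 5. The 5 most opposed were Txnrd2 (-0.69), Rpl22l1 (-0.67), Agtrap (-0.67), Cnp (-0.66) and Fen1 (-0.65), on 5 different chromosomes. Within set 1 alone (n = 36) Pgam5 had 0.71 and Rpl22l1 -0.59. Each lymphoma enters every one of these correlations, and they are given as a description.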

How the data were processed

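Total RNA of 43 lymphomas and 1 spleen had been hybridised to Affymetrix mouse arrays, 1 per sample. Each deposited value is the log2 level of 1 probe set, which the authors computed using RMA and the affy package per the submitters' processing notes, without versions. RMA background-corrects and quantile-normalizes arrays together, and the deposited columns fell into 2 sets by their medians. The labels state no such sets. Every column was mapped to a sample.

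Of 22690 probe sets, 64 were controls, 20380 had 1 gene symbol, and 691 with several and 1555 with none were left out. Symbols were compared with the GRCm38.p6 annotation by Entrez identifier, which 20351 matched. Where several probe sets had the same symbol, that of the highest mean stood for the gene (12393 genes), and genes with at least 1 lymphoma above the median of its set were kept. Cdkn2a was left out of the fit, which left 8621 genes.

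Genes were tested with limma 3.58.1 in R 4.3.3 (lmFit with the groups low, middle and high plus array set, eBayes with trend, 39 residual degrees of freedom, two-sided, Benjamini-Hochberg at 0.05). ± after a difference is its SE. Single values per lymphoma were tested by permutation (scipy 1.17.1, exact below 10 per group, otherwise 100000 resamples). Lists were described by counts and medians. The fit was tested on simulated data.

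The members, lists and tests were chosen with earlier results of these data known. Named genes were the 12 most positive and 12 most negative differences past the threshold, up to 4 called members of each list, a fixed set of single genes (Cdkn2b, Mtap, Mdm2, Cdkn1a, Ccng1, Myc, Bcl2, Bax, Bbc3, Mki67, Xist), and the 5 genes most and 5 least correlated with Cdkn2a. Genes of chromosomes 5, 13 and 19, Wdr90, Ezh1, Rpl22, Klhl9, Plaa, Polk, Aen, Pmaip1, Fas and Rbl2 were added after their values were seen. Bax and Trp53 were not analysed here. Plaa, Rbl2 and Xist differed by 0.35, -0.32 and 1.11 (limma, adjusted p = 0.0808, 0.237 and 0.69). The remaining lists are MYC metabolic targets, ribosomal proteins, unfolded protein response, NF-kB, immediate early, precursor B cell, mature B cell, germinal centre, MHC class II, dendritic cell, erythroid, megakaryocyte, stroma and endothelium, and adipocyte. In these, 0 genes were called by limma (3 higher and 5 lower at an unadjusted p under 0.05). Of all 8621 genes 1.38% were called higher and 0.661% lower, and 900 were higher and 595 lower unadjusted. Alternatives changed the set term, the filter, the probe set, the scaling, the moderation, the number of lymphomas at each end and the covariates. The spleen entered no comparison.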

Additional observations from a re-analysis of the deposited data

Results flagged for a closer look

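Within the groups of 10, a lymphoma was singled out when its gap to the nearest other, over the range of the group, exceeded Dixon's critical value at 95%. Of 138 groups examined, 12 held such a lymphoma, where chance flags about 1 in 20. In the Cdkn2a-high group D80 stood above the others for 2 p53 targets, Bbc3 (1.32, next -0.11) and Ccng1 (0.70, next -0.08). D83, the member with the lowest Cdkn2a, stood above the others for Fnbp1 (0.50, next -0.57) and Matk (0.15, next -0.40), and D62 for Aldh1b1 (1.27, next -0.21). In the Cdkn2a-low group D69 stood apart beside the Cdkn2a locus, for Klhl9 (-3.77, next -0.16) and Plaa (0.77, next 0.01). D92 was lowest for Mylpf (-0.89, next -0.42), D34 for Slc2a3 (-1.44, next -0.48), D133 for Cdkn2b (-0.48, next -0.26) and D58 for Fermt3 (-0.52, next 0.06). D89 was highest for the chromosome 19 median (0.30, next 0.10). The interaction of group and set gave 0 calls with limma (376 genes at an unadjusted p under 0.05), but set 2 held 2 lymphomas of each end, so this says little about whether the sets differed. Sit1 differed by 1.31 in set 1 and by -0.22 in set 2 (interaction in limma, adjusted p = 0.929).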

How the results depend on the processing

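The calls between the ends kept their sign in nearly every alternative, but their number did not. Genes called higher and lower (main 119 and 57) became 0 and 1 without the set term, 28 and 8 in set 1, 0 and 3 in set 2, 33 and 17 with 7 lymphomas at each end, 288 and 131 with a slope on Cdkn2a, 448 and 272 with array weights, 66 and 13 with cell scores, 38 and 27 without D35, D62 and D71, and 39 and 12 without D35, D80 and D107. With equal column medians 72 were higher. Chromosome 5 genes called higher (main 45) became 0, 11, 0, 6, 99 and 113 in the first 6 of these, and 3 and 24 in the last 2. Chromosome 13 genes called lower (main 21) became 0, 2, 0, 2 and 81 without the set term, in set 1, in set 2, with 7 at each end and with array weights, 12 with the ends alone, 11 with 14 at each end, 13 with equal medians, 4 with cell scores, and 9 and 0 in the last 2. The lymphomas left out in the last 2 had the highest chromosome 5 or the lowest chromosome 13 medians of the high group. Fewer calls on that chromosome were built into this choice. Leaving out 1 lymphoma gave 50 to 193 higher and 21 to 90 lower genes, 25 to 75 on chromosome 5, 6 to 31 on chromosome 13, 0 to 1 p53 target lower, and an imbalance difference of 0.0505 to 0.062. With array weights 1 p53 target was lower. The imbalance difference stayed past the threshold in all 7 other settings (p 0.00082 to 0.0124). Rpl22l1 was called in all. Of the 176 calls, the sign turned for 3 in set 2 (Sit1, Cwc15 and Ripor2) and for 6 of the 175 measured with the most variable probe set. These 6, named after their values were seen, were Gdi2 (0.298 in place of -0.316), Ube2b (-0.247 in place of 0.359), Ivns1abp (0.774 in place of -0.613), Psmb1 (-0.142 in place of 0.299), Hnrnpk (0.0963 in place of -0.215) and Exosc10 (-0.0393 in place of 0.396), each read from another probe set than in the report, and none was called there (limma, adjusted p 0.0537 to 0.923). Among the genes of the report, the differences that changed sign in set 2 were Sit1 (-0.22), Cdkn1a (-0.30), Bcl2 (0.68), Pmaip1 (-0.35) and Fas (0.0887). With 7 at each end it was Cdkn1a (-0.14), with 14 Myc (-0.0139), Rpl22 (-0.0026) and Fas (0.15), with the most variable probe set Rpl22 (-0.28), and with array weights Bcl2 (0.025). With cell scores they were Mdm2 (-0.056) and Cdkn1a (-0.16), with the B cell stage score Fas (0.0626). Without D35, D62 and D71 it was Fas (0.05), and without D35, D80 and D107 Mdm2 (-0.0022), Cdkn1a (-0.17) and Pmaip1 (-0.14). Leaving out 1 lymphoma moved Cdkn1a between -0.0338 and 0.2035 (below 0 without D35 or D83) and Pmaip1 between -0.0421 and 0.3248 (below 0 without D43 or D47). The cause was not tested. No paired analysis was possible because the groups share no replicate numbers.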
